A study of Mus musculus with 2 samples.

Results

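Parvalbumin (Pvalb), calbindin (Calb1), calretinin (Calb2), Necab1, Necab2, protein kinase C delta (Prkcd) and slow skeletal troponin T (Tnnt1) were followed in single nuclei of the mouse thalamus, as genes that bind calcium or mark thalamic nuclei. The 7 genes were taken by name, through their Ensembl identifiers on GRCm38, from the 32285 gene rows of each count table, and all 7 had a row in both tables. Single-nucleus RNA sequencing was done on the thalamus of the operated side from female C57BL/6J mice aged 3 months, on day 21 after a sham operation or after cortical ablation injury, in which sensory and motor cortex was removed by surgery. Each group was 1 library made from nuclei of 4 mice pooled before sequencing, and the labels name no allele or agent besides the operation. Because the mice of a pool cannot be told apart, no difference between the libraries had a replicate check and none was tested.

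Pvalb, Calb1 and Calb2 encode cytosolic proteins that take up calcium through EF-hand loops and are the classical histochemical markers of neuron types. In the thalamus, parvalbumin is known for the GABAergic neurons of the reticular nucleus, while calbindin and calretinin are known for relay neurons of the matrix, higher-order and midline nuclei. Necab1 and Necab2 encode neuronal proteins with an EF-hand region near the N terminus, Prkcd encodes a diacylglycerol-activated kinase of sensory relay neurons, and Tnnt1 encodes a subunit of the muscle troponin complex whose transcript is found in primary sensory relay nuclei.

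The loops that give the group its name differ between the genes. Each coding sequence (GENCODE M21 on GRCm38) was searched for the 12-codon EF-hand pattern, which gave 2 loops in Pvalb, 4 in Calb1, 5 in Calb2, 1 in Necab1 and 2 in Necab2. Prkcd (ENSMUSG00000021948, chr14:30595354-30626210) and Tnnt1 (ENSMUSG00000064179, chr7:4504570-4516382), both on the minus strand, had 0, so they belong here as markers of nuclei and not as EF-hand genes. One loop of each gene is printed, with codons 1, 3 and 12, which hold calcium ligands, in capitals. The Pvalb loop lies at chr15:78202526-78202561, the Calb1 loop at chr4:15895644-15895679 and the Calb2 loop at chr8:110149362-110149397, each inside 1 coding exon. The Necab1 loop at chr4:15111277-15140234 and the Necab2 loop at chr8:119450097-119452107 each cross a splice junction. Pvalb, Calb2 and Necab1 are on the minus strand, Calb1 and Necab2 on the plus strand.
Pvalb: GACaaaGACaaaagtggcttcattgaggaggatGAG
Calb1: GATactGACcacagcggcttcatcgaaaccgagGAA
Calb2: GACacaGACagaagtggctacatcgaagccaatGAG
Necab1: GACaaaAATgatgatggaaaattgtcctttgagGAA
Necab2: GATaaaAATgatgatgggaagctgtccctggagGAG
The Necab1 and Necab2 loops shared 29 of 36 bases. Pvalb and Calb2 shared 28 of 36, Calb1 and Calb2 25 and Pvalb and Calb1 23, while the pairs of a Necab loop with any of these 3 shared between 14 and 17. The other loops of these genes were not compared. These counts therefore hold for the printed loops only and do not show how close the families are. Pvalb (ENSMUSG00000005716) spans chr15:78191114-78206400, Calb2 (ENSMUSG00000003657) chr8:110137502-110168210 and Necab2 (ENSMUSG00000031837) chr8:119446719-119472640. Calb1 (ENSMUSG00000028222, chr4:15881264-15908064) and Necab1 (ENSMUSG00000040536, chr4:14952245-15149794) lie 731.5 kb apart on chromosome 4. Necab1 contains the antisense gene Gm11844 and overlaps the antisense gene Gm11837. The use of strand in counting was not stated, so it cannot be checked to which gene reads of these overlaps were assigned.

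The sham library held 16373 nuclei with a median of 7190 UMIs (unique molecular identifiers, each standing for 1 captured transcript) and the injury library 21777 nuclei with a median of 6810, and 101 barcodes occurred in both. Clusters were made without the 7 genes and put into classes by Slc17a6, Slc17a7, Gad1 and Gad2. Slc17a6 encodes the glutamate transporter of relay neurons. Slc17a6 neurons were 10801 sham and 10961 injury nuclei in 15 clusters, GABAergic neurons 2360 and 4381 nuclei in 3 clusters, and a class led by Slc17a7 held 1092 and 1975 nuclei in 4 clusters. The labelled tissue was borne out by the relay markers Tcf7l2 (576 and 567 CPM in Slc17a6 neurons) and Lef1 (428 and 407 CPM), where CPM is the UMI sum of a gene scaled to the UMI total of its class or cluster. Gbx2 was low, at 1.88 and 1.66 CPM. Clusters 20, 24 and 27 came almost wholly from the injury library (4, 0 and 0 sham nuclei against 415, 281 and 221), so a type and a library cannot be told apart in them. The oligodendrocyte markers Mbp, Mobp, Mog and Mag were higher in neurons of the injury library. Mobp, for example, had 5.19 and 11.6 CPM in Slc17a6 neurons and 5.23 and 14.3 CPM in GABAergic neurons. A subtraction of free RNA was run as an alternative only for ratios from the group of 7 genes over the whole Slc17a6 and GABAergic classes. The part of free RNA in the other differences was not tested. Oligodendrocytes, which are not known for the 7 genes, serve as the reference for free RNA. Their nuclei were much shallower, with medians of 1538 and 1652 UMIs against 8424 and 8718 in Slc17a6 and 5541 and 5772 in GABAergic neurons, so CPM and shares of nuclei are both given.

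Each gene had its own order of neuron clusters. Pvalb was led by cluster 10, at 88.1 CPM in the sham and 87.6 CPM in the injury library, and 45.8% of its nuclei held a Pvalb UMI. All 5 markers of the reticular nucleus (Six3, Ecel1, Spp1, Ubash3b and Sst) were highest in this cluster, which is therefore called reticular nucleus-like. It held 58.7% of the Pvalb UMIs of all nuclei kept, and its level was 13.5 times that of the next cluster, cluster 11 (led by Ppp1r3a and Crybg1), at 6.499 CPM. Cluster 19 (led by Adamts19 and Fgf10) followed at 6.09 CPM, which did not differ from cluster 11 beyond counting error.

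Prkcd and Tnnt1 led in the same cluster. In cluster 4 (led by Adgrf5, Tspear and C6) Prkcd had 551 CPM in the sham library and 519 CPM after injury, 93.0% of nuclei held its UMI, and the cluster gave 39.3% of the Prkcd UMIs of all nuclei kept. Clusters 11 and 19 came next at 415 and 295 CPM over both libraries, and cluster 2 (led by Snx31, C6 and Pth2r) at 176 CPM. The lowest was cluster 7, at 4.88 CPM, called medial habenula-like because 3 of the 5 markers, Chat, Chrnb4 and Slc5a7, were highest there, while Tac2 and Gng8 were highest in cluster 13 and second in cluster 7. Tnnt1 had 23.4 and 19.4 CPM in cluster 4, with 20.4% of nuclei holding a UMI and 42.8% of its UMIs over all nuclei kept. Its second place, cluster 14 (led by Adgrg6, Klhl14 and Calca), at 22.8 and 14.6 CPM, did not differ from cluster 4 beyond counting error over both libraries together. The other clusters were lower, from 11.2 CPM in cluster 23 (led by Adamtsl3 and Hcrtr2) to 0.28 CPM in cluster 24.

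Calb1 and Necab1 were each detected in many of the clusters, at very unequal levels. Calb1 was highest in cluster 8 (led by Nox4 and Kcp), at 190 and 175 CPM with a UMI in 66.8% of nuclei, followed by clusters 23, 16 and 14 at 136, 123 and 109 CPM. Called doublets made up 19.8% of nuclei in cluster 8 and 27.9%, 28.5% and 15.4% in clusters 23, 16 and 14. The lowest neuron cluster for Calb1, cluster 15 (led by Npsr1), had 7.94 CPM (5.91 to 10.4), which is not above the 6.55 CPM (4.66 to 8.95) of oligodendrocytes beyond counting error. Its nuclei were deeper, with a median of 7740 UMIs against 1620. Of these nuclei 5.34% held a Calb1 UMI, against 0.909% and 1.26% of oligodendrocytes. The highest level was 4.14 times the median over the 22 neuron clusters, and cluster 8 gave 14.4% of the Calb1 UMIs of all nuclei kept. Necab1 reached 678 and 645 CPM in cluster 2 and 655 CPM over both libraries in cluster 23. These did not differ beyond counting error, and 96.3% and 96.9% of their nuclei held a UMI. Cluster 6 (led by Col12a1 and Fbln1) had 594 CPM and cluster 8 383 CPM, while clusters 5, 24, 21, 7 and 15, at 20.4, 20.4, 16.9, 9.53 and 3.89 CPM, lay inside or below the counting interval of the oligodendrocyte level, 16.6 to 23.9 CPM. Clusters 5, 24, 21, 7 and 15 had median depths of 8831, 11214, 8804, 5057 and 7740 UMIs, against 1620 in oligodendrocytes. CPM alone does not place these levels at background. Cluster 2 gave 36.3% of the Necab1 UMIs of all nuclei kept. The highest level was 7.77 times the median for Necab1, against 50.2 for Pvalb, 18.7 for Tnnt1 and 18.2 for Prkcd.

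Calb2 and Necab2 led outside the clusters of Prkcd. Calb2 was highest in cluster 26 (led by Ebf2, Postn and Corin), a small cluster of 72 sham and 174 injury nuclei, at 153 and 136 CPM. Cluster 13 (led by Pde11a and Cngb3) followed at 93.8 CPM, then clusters 16 and 6 at 68.1 and 67.6 CPM, which did not differ beyond counting error. Necab2 was highest in 2 Slc17a7-led clusters, with 269 and 264 CPM in cluster 13 and 230 and 218 CPM in the medial habenula-like cluster 7, where 66.4% of nuclei held a UMI. Both levels lay well above cluster 9 (led by Ptprq and Htr2c) at 91.1 CPM, the highest of the Slc17a6 clusters.

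**Figure D1:**
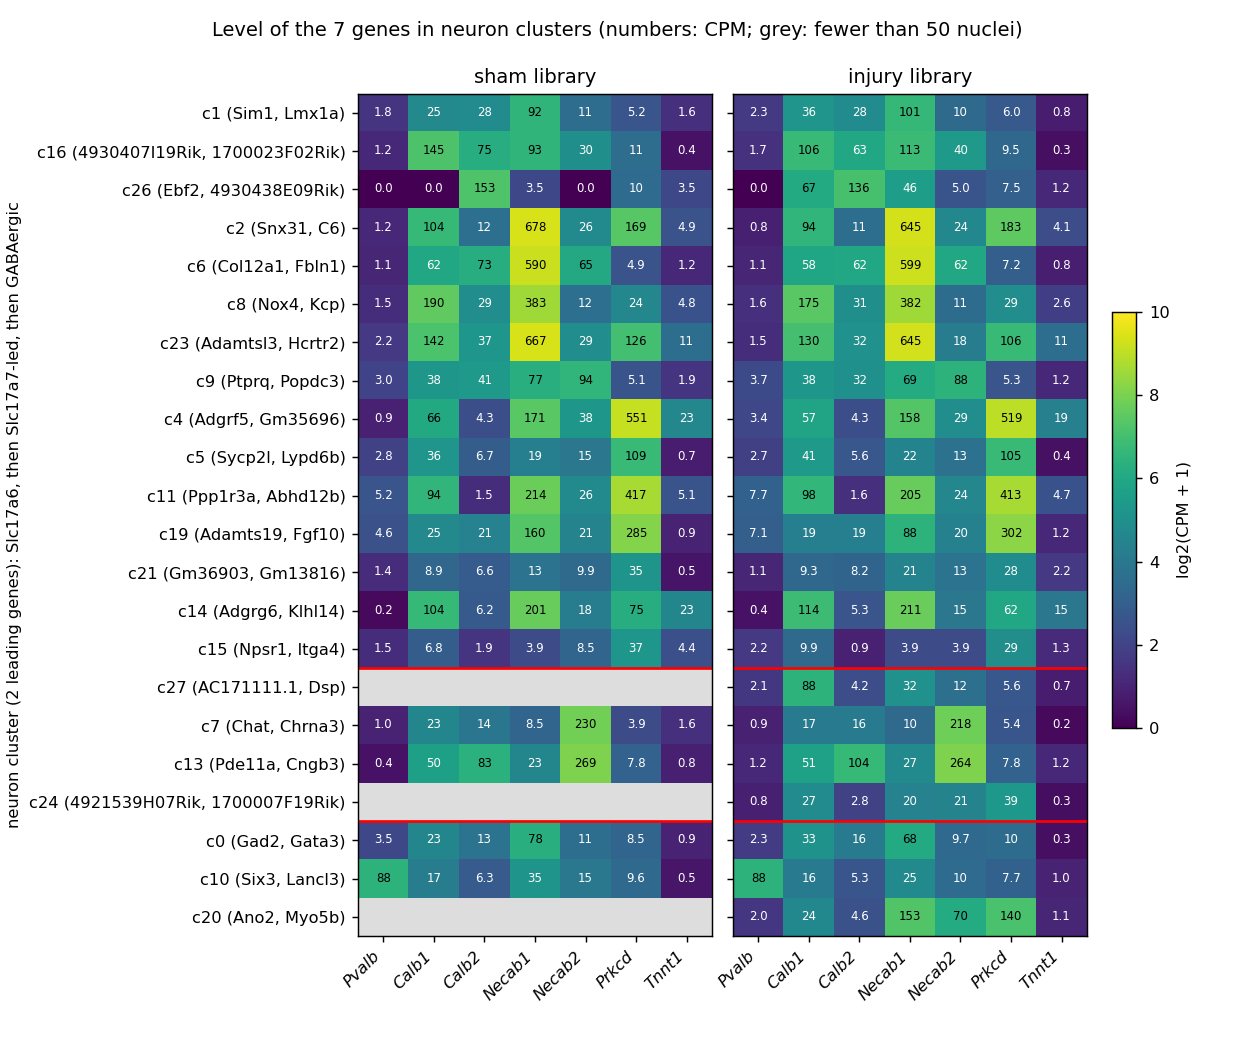
Level of each gene (columns) in each neuron cluster (rows, with 2 leading genes) of the sham (left) and injury (right) library. Colour is log2(CPM + 1), printed numbers are CPM, grey rows have fewer than 50 nuclei in that library, and red lines part Slc17a6, Slc17a7-led and GABAergic clusters. Pvalb stands at 88.1 and 87.6 CPM in cluster 10, and Prkcd at 551 and 519 CPM in cluster 4.

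Over the 19 neuron clusters with at least 50 nuclei in each library, sham and injury levels on the log2(CPM + 1) scale had a Pearson correlation of 0.99 for Prkcd and Calb2, 0.96 for Pvalb, 0.93 for Necab1, 0.92 for Necab2, 0.90 for Tnnt1 and 0.62 for Calb1. The Calb1 value rests on cluster 26, with 0 CPM from 72 sham nuclei and 67.4 CPM in the injury library. Without this cluster, left out after the values were seen, it was 0.98, and the other genes stood between 0.91 and 0.99. These describe clusters that share a library and were defined on both libraries together. Between members, the pattern of Calb1 was closest to that of Necab1 (0.80 sham and 0.79 injury), that of Prkcd came closest to Tnnt1 (0.55 and 0.67), and Calb2 ran against Prkcd (-0.56 and -0.55).

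Among 14520 genes with at least 200 UMIs in neurons of each library, the genes most like each member over these 19 clusters were ranked by the lower of both correlations. Necab1 was most like Gm11844 (0.99 in both libraries), the antisense gene inside it, followed by Cd247 and Cask. Whether reads of Necab1 and Gm11844 were counted for each other was not tested. Prkcd was most like Gm7644 (0.97 and 0.97), a long noncoding RNA gene 9.9 kb away, followed by Plekhg1 and Socs6. Calb2 was most like Cmtr2 (0.96 and 0.90), 47.5 kb away, then Jph4 and Dlg1. For these 3 members the closest gene thus lay inside the member or on the same chromosome near it. Pvalb was most like Dip2a (0.80 and 0.78), then Cep83 and Pln. Calb1 was most like Necab1, then Gpr153 and Gm11844. Necab2 was most like 1190005I06Rik (0.92 and 0.89), then Tsacc and Lca5, and Tnnt1 was most like Usp43 (0.81 and 0.82), then Gm39043 and Srpk2.

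Promoter windows, up to 250 bases before the annotated start, were read from RefSeq (GRCm38.p6) for Pvalb, led by a GABAergic cluster, and Prkcd, led by an Slc17a6 cluster. Entries were found for 4 of the 7 members. Both genes have 2 windows, and the one at the annotated start of the gene is printed. Each window was searched on both strands, at any position, for exact matches of 4 motifs. These were the letters TATAAA of the TATA box, the CCAAT box, the GC box (GGGCGG) and the core of the motif of Tcf7l2 and Lef1 (CTTTGA). None of them overlaps another. Variants of a motif were not counted, so a window without a match may still hold a variant. Of all 32851 windows, 12.4% held TATAAA, 33.8% a CCAAT box, 32.7% a GC box and 13.8% the Tcf7l2 and Lef1 core. The printed Pvalb window, chr15:78206401-78206650 on the minus strand, held none of the 4 and was 58.4% GC, against a median of 52.4%. The other Pvalb window, chr15:78204238-78204487, also held none and was 71.6% GC.
Pvalb promoter: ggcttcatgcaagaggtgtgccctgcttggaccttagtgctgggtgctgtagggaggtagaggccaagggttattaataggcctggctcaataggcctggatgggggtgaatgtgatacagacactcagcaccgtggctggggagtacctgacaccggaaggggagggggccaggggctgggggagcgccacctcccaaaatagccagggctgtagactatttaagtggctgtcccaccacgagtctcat
The printed Prkcd window, chr14:30626211-30626458 on the minus strand, held 1 TATAAA, 4 GC boxes and 1 Tcf7l2 and Lef1 core, the last on the opposite strand and so spelled TCAAAG, and 0 CCAAT boxes. The TATAAA lay near the end of the window far from the start site, so it is not read as the TATA box of this start. It was 67.3% GC. The other Prkcd window, chr14:30610311-30610560, held none of the 4 and was 50.8% GC. Matches are in capitals, and they are descriptions of the letters only.
Prkcd promoter: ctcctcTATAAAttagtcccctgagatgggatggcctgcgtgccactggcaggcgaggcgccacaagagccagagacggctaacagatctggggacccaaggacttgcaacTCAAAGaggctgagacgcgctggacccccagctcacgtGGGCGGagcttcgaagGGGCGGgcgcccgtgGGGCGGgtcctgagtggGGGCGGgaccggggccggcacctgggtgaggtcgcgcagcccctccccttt

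To determine whether the 3 markers of relay nuclei part Slc17a6 neurons into separate groups, each nucleus was thinned to 3000 UMIs, so that depth did not set what was detected. This kept 10407 sham and 10551 injury nuclei and left out 394 and 410 shallower ones. The class was taken as a whole and was not limited to relay neurons. In clusters 1, 9 and 16 the marker list that matched best was a habenula list, though only weakly in cluster 1. These clusters were 16.8%, 7.22% and 3.35% of sham and 17.5%, 6.46% and 3.39% of injury Slc17a6 nuclei before thinning. Of the nuclei with at least 1 of Tnnt1, Necab1 and Calb2, 91.4% of 4644 in the sham library (interval 90.5 to 92.2) and 92.2% of 4468 in the injury library held only 1 of them. If the 3 genes were detected independently of each other, 92.4% and 93.2% would hold only 1. The share of exclusive nuclei was thus slightly below that of independent detection and is not by itself a sign of separate groups. All intervals given are 95% intervals of counting error and leave out the spread between mice.

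Single patterns showed more than their sum. Necab1 alone made up 81.0% and 82.2% of these nuclei, Calb2 alone 7.92% and 7.79%, and Tnnt1 alone 2.48% and 2.22%. Necab1 with Calb2 was the main joint pattern, with 342 sham and 299 injury nuclei, or 7.36% and 6.69%. With or without Tnnt1, both were found in 345 and 301 nuclei, against 285 and 247 under independence over the class. With independence taken inside each cluster, 337 and 278 would hold both, which is close to the number found. Tnnt1 with Calb2 and without Necab1 was found in 0 nuclei of both libraries, and all 3 genes together in 3 and 2. The larger part of the thinned Slc17a6 nuclei, 55.4% and 57.7%, held none of the 3.

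**Figure D2:**
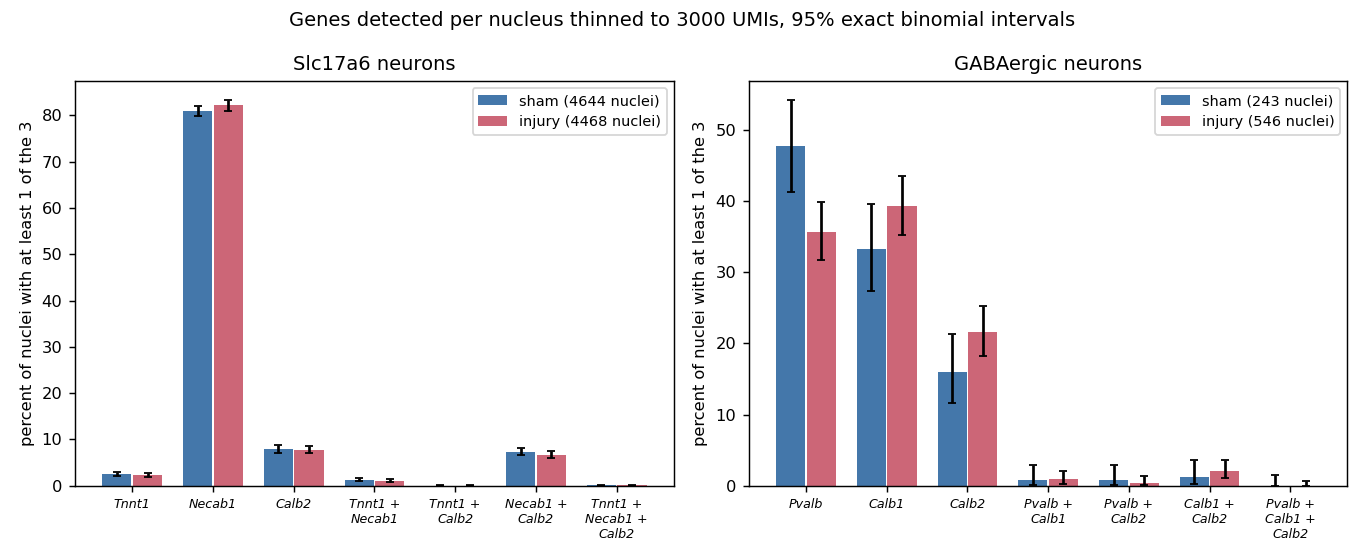
Percent of marker-positive nuclei (vertical axis) with each pattern of Tnnt1, Necab1 and Calb2 in Slc17a6 neurons (left) and of Pvalb, Calb1 and Calb2 in GABAergic neurons (right), after thinning to 3000 UMIs, with exact binomial 95% intervals. Necab1 alone takes 81.0% and 82.2% on the left. On the right Pvalb alone takes 47.7% of sham and 35.7% of injury positive nuclei, which are 6.41% and 5.55% of all GABAergic nuclei.

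Pairs of genes were then set against independence. Of the 21 pairs, 19 had at least 5 nuclei expected with both genes in each library of Slc17a6 neurons, and in 9 of them both genes were found together more often than independence gives in both libraries, in 6 less often, and in 4 the libraries differed. These counts take any ratio above or below 1, with no interval, so they hold pairs close to independence such as Calb1 with Calb2, with 125 nuclei against 122 and 113 against 104, and they are a description only. Prkcd and Tnnt1 were found together in 85 sham nuclei against 38.7 under independence and in 86 injury nuclei against 36.1, a ratio of 2.19 and 2.38. Calb1 and Necab1 met in 1004 nuclei against 714 and 874 against 646 (1.41 and 1.35), and Calb2 and Necab2 had ratios of 1.41 and 1.51. Calb2 and Prkcd were found together less often than independence gives, with 38 nuclei against 159 and 51 against 156 (0.239 and 0.326), as were Calb2 and Tnnt1, with 3 against 11.9 and 2 against 9.23.

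For Prkcd with Tnnt1, Calb1 with Necab1 and Calb2 with Prkcd the ratios were closer to 1 when independence was taken inside each cluster, which leaves out the part set by clusters that hold both genes or neither. They then stood at 1.13 and 1.15, at 1.10 and 1.09, and at 0.536 and 0.698. Over the 19 pairs the range was 0.379 to 1.31, with 8 above 1 in both libraries. The whole-class ratio of Pvalb with Prkcd was 0.967 (sham) and 1.84 (injury), and 1.04 and 1.27 within clusters. That with Calb1 was 0.986 and 0.346 over the class and 1.15 and 0.379 within clusters, on 65 and 72 thinned nuclei with a Pvalb UMI.

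**Figure D3:**
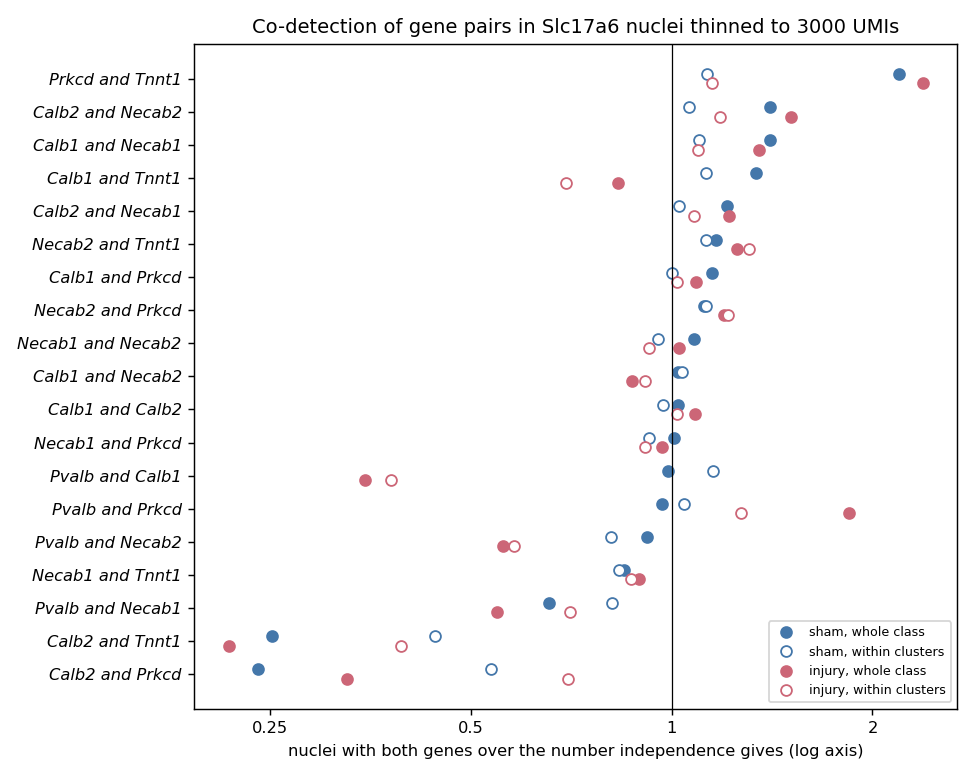
Co-detection in Slc17a6 nuclei thinned to 3000 UMIs. Each row is a gene pair, the horizontal log axis is the number of nuclei with both genes over the number independence gives, colours are libraries, filled points take the class as a whole and open points each cluster on its own. Prkcd and Tnnt1 stand at 2.19 and 2.38 for the whole class and at 1.13 and 1.15 within clusters, while Calb2 and Prkcd are below 1 in both.

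Counted over all 7 genes, 34.9% of sham and 35.6% of injury Slc17a6 nuclei held none after thinning, 39.3% and 39.7% held 1, and 25.8% and 24.8% held 2 or more. The genes differed in how often they stood alone. Among nuclei with Necab1, 47.8% and 49.7% held no other member, and with Prkcd 43.6% and 45.04%. With Tnnt1 it was 47 of 174 and 30 of 150 nuclei, and with Calb1 26.7% and 29.5%.

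GABAergic nuclei were compared for Pvalb, Calb1 and Calb2, the markers commonly used to part inhibitory neurons. Thinning kept 1809 sham and 3511 injury nuclei and left out 551 and 870. Of the 243 and 546 nuclei with at least 1 of the 3, 97.1% and 96.7% held only 1, against 95.6% and 94.7% under independence. The sham interval (94.2 to 98.8) held the value under independence, and the injury interval (94.8 to 98.0) lay just above it. Pvalb alone made up 47.7% of these sham and 35.7% of these injury nuclei, Calb1 alone 33.3% and 39.4%, and Calb2 alone 16.0% and 21.6%. As shares of all thinned GABAergic nuclei, Pvalb alone was in 6.41% and 5.55%, Calb1 alone in 4.48% and 6.12% and Calb2 alone in 2.16% and 3.36%, and with cluster 20, which had 4 sham nuclei, left out Pvalb alone was in 6.42% and 6.23%. Pvalb and Calb1 met in 2 and 5 nuclei, against 5.70 and 13.3 under independence over the class and 4.38 and 8.17 within clusters. On these few nuclei the ratio was 0.351 and 0.376 over the class and 0.456 and 0.612 within clusters. All 3 genes were detected in 0 nuclei of both libraries, which at this thinned depth limits only joint detection, to 1.51% and 0.673% of the positive nuclei. Pvalb stood alone among all 7 genes in 89.2% and 88.1% of the GABAergic nuclei that held it. Any 2 or more members met in 2.54% and 5.58% of GABAergic nuclei, and in 2.55% and 3.85% with cluster 20 left out. That cluster, 37.0% of whose nuclei were called doublets, held 76 of the 196 such injury nuclei.

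Levels in Slc17a6 neurons were then compared between the libraries. Necab1 had 290 CPM in the sham and 275 CPM in the injury library and was found in 52.0% of nuclei of each. Prkcd had 160 and 168 CPM (33.6% and 35.7% of nuclei), and Calb1 74.9 and 71.5 CPM (34.9% and 34.6%). The log2 ratios of injury over sham were -0.08 (interval -0.10 to -0.05), 0.06 (0.03 to 0.09) and -0.07 (-0.11 to -0.02), so these 3 genes, the most widely detected, differed by little between the libraries. In oligodendrocytes Necab1 had 20.6 and 19.7 CPM (3.43% and 3.34% of nuclei), Prkcd 13.5 and 12.9 CPM (2.22% and 2.35%) and Calb1 5.29 and 7.05 CPM (0.909% and 1.26%), far below their levels in Slc17a6 neurons.

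Calb2 had 21.8 and 20.1 CPM (15.1% and 14.5% of nuclei) and Necab2 28.97 and 25.8 CPM (20.4% and 18.8%), with log2 ratios of -0.11 (-0.20 to -0.03) and -0.17 (-0.24 to -0.09). Both were slightly lower in the injury library, and both were above their oligodendrocyte levels of 7.06 and 6.82 CPM for Calb2 and 3.53 and 6.35 CPM for Necab2. Tnnt1 had 6.86 CPM from 709 UMIs and 5.34 CPM from 590 UMIs, in 5.45% and 4.54% of nuclei, and its log2 ratio was -0.36 (-0.52 to -0.20). In oligodendrocytes Tnnt1 had 4.12 and 2.82 CPM, not far below, and shares of 0.707% and 0.478%. Pvalb had 1.81 CPM from 187 UMIs and 2.53 CPM from 280 UMIs, in 1.56% and 2.25% of nuclei, with a log2 ratio of 0.49 (0.21 to 0.76). Oligodendrocytes had 4.12 CPM (1.66 to 8.48) and 3.06 CPM (1.63 to 5.22) from 7 and 13 Pvalb UMIs, shares of 0.707% and 0.564%, and 0.00707 and 0.00564 UMIs per nucleus against 0.0173 and 0.0255 in Slc17a6 neurons. Thinned to 3000 UMIs, Pvalb was in 0 of 65 and 3 of 220 oligodendrocytes and in 65 of 10407 and 72 of 10551 Slc17a6 nuclei. Thinned to 3000 UMIs the log2 ratio of Pvalb was 0.10 and that of Tnnt1 -0.24. With free RNA subtracted, as estimated from oligodendrocytes, Pvalb was at 0.88. No order between these classes is read from these values.

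Past an absolute log2 ratio of 0.25 were 2 of the 7 genes in Slc17a6 neurons, Pvalb above and Tnnt1 below, against 26.6% of the 19268 genes with at least 50 UMIs. In GABAergic neurons 3 of the 6 genes with at least 50 UMIs were past it, against 34.1% of 15952 genes. In GABAergic neurons these were Calb1, Necab2 and Prkcd, all above. With so few genes, neither count is read as a result about the members. The median log2 ratio over all genes compared was 0.003 in Slc17a6 and -0.012 in GABAergic neurons.

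**Figure D4:**
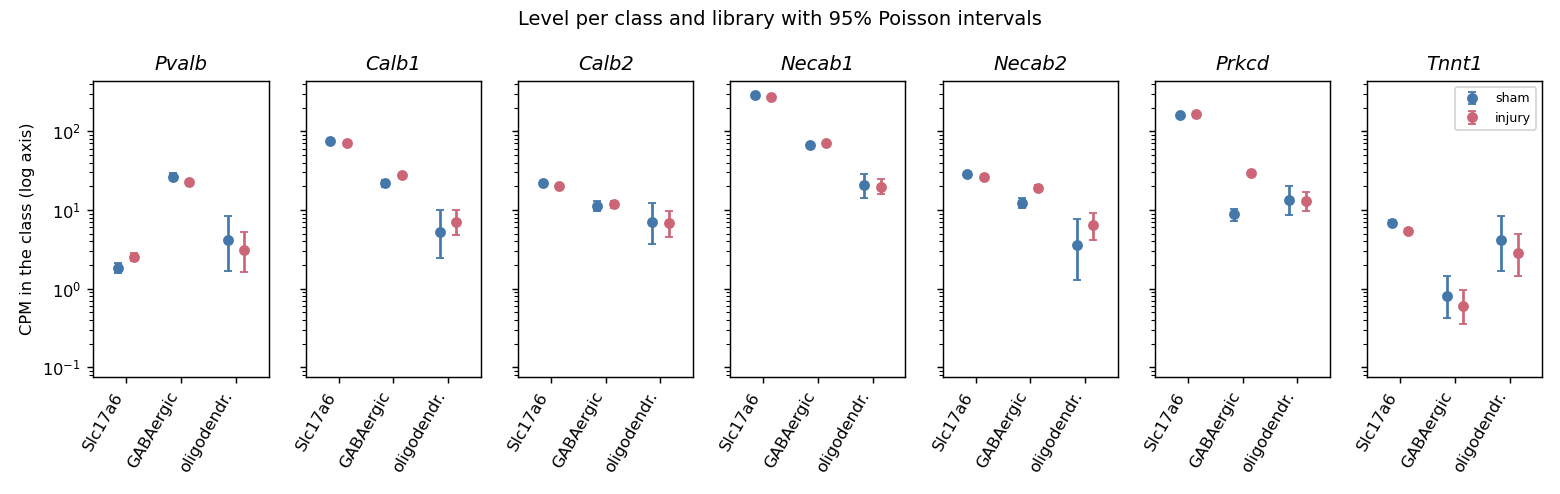
Level of each gene (panels) in Slc17a6 neurons, GABAergic neurons and oligodendrocytes, as CPM on a log axis with 95% Poisson intervals, 1 library per point. Pvalb is high in GABAergic neurons (26.3 and 22.6 CPM) and low in Slc17a6 neurons (1.81 and 2.53 CPM), and Prkcd stands at 8.76 and 29.5 CPM in GABAergic neurons.

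Single clusters were then compared. They are parts of the same 2 libraries, so clusters that go the same way are not repeated evidence. Of the 5 Slc17a6 clusters with enough Tnnt1 UMIs, all 5 were lower in the injury library, 3 of them with an interval below 0. Tnnt1 was also lower in the clusters set apart for called doublets (-0.89, -1.44 to -0.33), while its intervals in GABAergic neurons and oligodendrocytes included 0. Whether Tnnt1 was lower in the injury library as a whole was not tested. Cluster 14 went from 129 to 72 UMIs (log2 ratio -0.64, -1.08 to -0.21) and cluster 4 from 320 to 314 (-0.27, -0.50 to -0.04), the latter over more nuclei. Necab2 was lower in 11 of 12 clusters and Calb2 in 10 of 12, with an interval below 0 in 2 each, which were clusters 4 and 23 for Necab2 (-0.38 and -0.73) and clusters 6 and 9 for Calb2 (-0.24 and -0.38). Calb1 went both ways, higher in 7 clusters and lower in 7. It was higher in cluster 1 (led by Sim1 and Lmx1a), by 0.50 (0.31 to 0.69), and lower in cluster 16, by a log2 ratio of -0.46. In cluster 26 Calb1 had 0 sham and 54 injury UMIs and Necab1 1 and 37, on 72 and 174 nuclei.

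Among clusters with at least 50 Necab1 UMIs and an interval that left out 0, Necab1 differed most in cluster 19, where 160 CPM in the sham library stood against 88.1 CPM in the injury library, a log2 ratio of -0.86 (-1.09 to -0.63). Prkcd was higher in 6 clusters and lower in 8, among them 0.11 in cluster 2, -0.09 in cluster 4 and -0.26 in cluster 14. Pvalb had enough UMIs in 4 Slc17a6 clusters and was higher in 3 and lower in 1, with an interval above 0 only in cluster 4. In this cluster, the Prkcd and Tnnt1 cluster, Pvalb went from 12 to 55 UMIs, or from 0.88 to 3.40 CPM, a log2 ratio of 1.95 (1.04 to 2.99). Of the 49 injury nuclei behind this value, 5 were called doublets, 2 held a Gad1 or Gad2 UMI and 6 held 2 or more Pvalb UMIs. Its injury level of 3.40 CPM is near the 3.06 CPM of oligodendrocytes, while its nuclei, which are deeper, held 0.0404 Pvalb UMIs each against 0.00564. The part of free RNA in this value was not tested.

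In GABAergic neurons the reticular nucleus-like cluster 10 had the same Pvalb level in both libraries within counting error, with 350 and 626 UMIs and a log2 ratio of -0.01 (-0.20 to 0.19). Pvalb over the whole class was 26.3 and 22.6 CPM (10.8% and 9.86% of nuclei), a log2 ratio of -0.22 (-0.40 to -0.04), and -0.005 with cluster 20 left out and -0.02 without called doublets. Calb1 was at 21.8 CPM in the sham and 27.5 CPM in the injury library (8.94% and 11.6% of nuclei), a log2 ratio of 0.34 (0.15 to 0.53). The difference lay in cluster 0 (led by Gad2, Gata3, Lhx1 and Pax3), where Calb1 had 245 sham and 601 injury UMIs, 22.9 and 32.8 CPM, a log2 ratio of 0.52 (0.31 to 0.74). In cluster 10 it was -0.12.

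Prkcd, Necab2 and Necab1 in GABAergic neurons turned on cluster 20. Prkcd had 8.76 CPM in the sham and 29.5 CPM in the injury library, in 4.24% and 11.6% of nuclei, a log2 ratio of 1.75 (1.48 to 2.03). Necab2 had 12.2 and 18.97 CPM and a log2 ratio of 0.63 (0.39 to 0.88). Cluster 20 (led by Ano2, Myo5b and Prdm16) held 637 of the 884 Prkcd UMIs of the injury library, at 140 CPM with 69.2% of nuclei positive, and 319 of the 569 Necab2 UMIs. It had 4 sham nuclei, and 37.0% of its nuclei were called doublets. With cluster 20 left out, the log2 ratio of Prkcd was 0.15, at 8.78 and 9.71 CPM, against 13.5 and 12.9 CPM in the shallower oligodendrocytes, that of Necab2 turned to -0.32 and that of Necab1 went from 0.09 to -0.24, so the Prkcd and Necab2 differences over the class rested on this cluster. Necab1 was lower within cluster 10, at -0.47, and within cluster 0, at -0.19, with both intervals below 0.

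Calb2 in GABAergic neurons had 11.3 and 11.8 CPM (6.10% and 6.85% of nuclei) and a log2 ratio of 0.07 (-0.20 to 0.34), so no difference was detectable over the class. It was 0.22 (-0.06 to 0.49) with cluster 20 left out, 0.30 (0.0043 to 0.60) in cluster 0 and -0.24 (-1.01 to 0.55) in cluster 10. Tnnt1 had 12 and 18 UMIs, in 0.466% and 0.388% of nuclei, which is no more than in oligodendrocytes and is read as background.

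**Figure D5:**
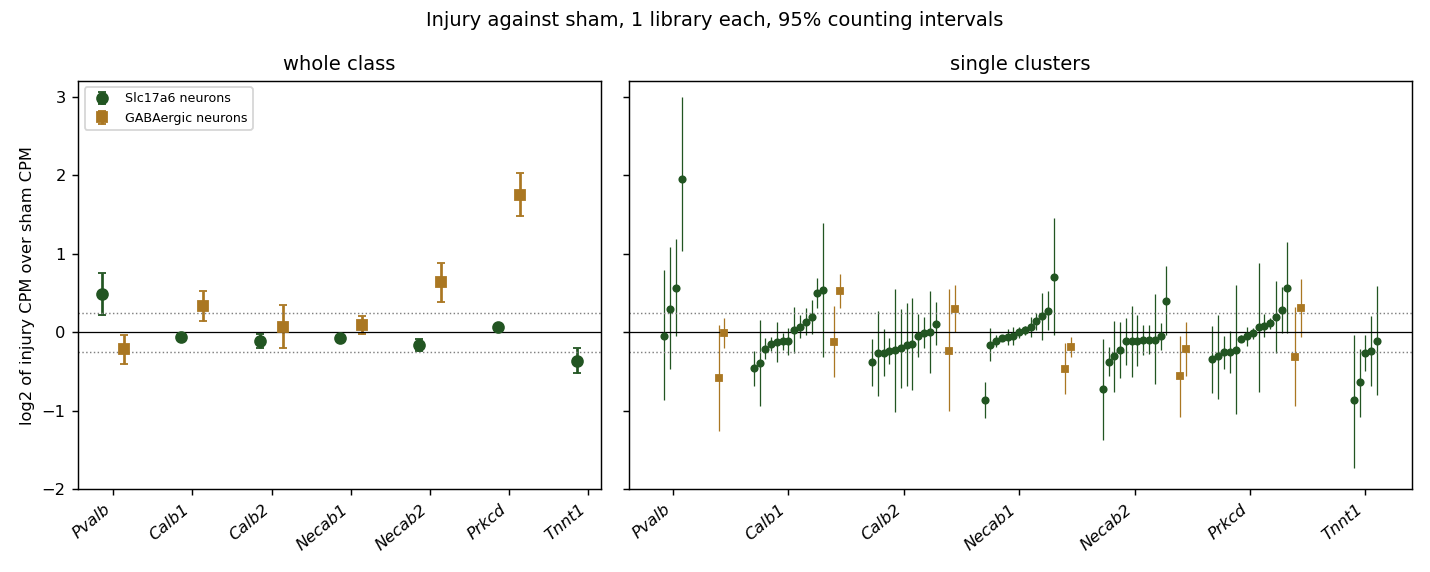
Log2 of injury CPM over sham CPM with 95% counting intervals, for whole classes (left) and single clusters (right), with circles for Slc17a6 and squares for GABAergic neurons. Only genes with at least 50 UMIs over both libraries are drawn, and dotted lines mark 0.25 in either direction. Tnnt1 is below 0 in all 5 of its clusters, and Prkcd stands at 1.75 in the GABAergic class.

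In the Slc17a7-led class Necab2 had 247 and 151 CPM, in 68.0% and 53.0% of nuclei. Clusters 24 and 27, found only in the injury library, entered this mean. Within clusters 7 and 13, the 2 clusters with the highest Necab2 level, the log2 ratios were -0.08 and -0.02.

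Relatives of the 7 genes were counted from lists. Of 27 other EF-hand genes, 25 had at least 50 UMIs in Slc17a6 neurons, with 1 past the fold above (Hpca) and 3 below and a median log2 ratio of 0.07, where 2654 of all 19268 genes were above and 2463 below. The largest was Cabp7 at -0.71, from 58 and 38 UMIs. Of 8 other protein kinase C genes none was past the fold, with a median of 0.14, led by Prkca at 0.22 and Prkcb at 0.20. Of 7 other troponin genes 4 had at least 50 UMIs, with Tnni1 at 1.04 from 35 and 77 UMIs and Tnnc1 at -0.29. Both encode subunits of the slow troponin complex, as Tnnt1 does, and they went opposite ways. Of 12 other regional genes of the thalamus 2 were higher and 1 lower, with a median of -0.05. They were the peptide gene Cartpt (1.41, from 76 and 216 UMIs), the calcitonin receptor gene Calcr (1.18) and neurotensin, Nts (-0.78).

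In GABAergic neurons, 4 EF-hand genes were past the fold above and 3 below among 24, with a median of -0.03, Kcnip2 at 1.38 and Cib2 at -0.53. Of the 8 protein kinase C genes 6 were above and 0 below, with a median of 0.38, where 2918 of all 15952 genes were above, led by Prkca at 0.81 (148 and 260 CPM) and Prkcq at 0.51. Calcr was at 0.81 and Tcf7l2 at -0.52 among 11 regional genes, of which 4 were above and 2 below, and Tnnt2 at -1.03 on 28 UMIs in each library. With cluster 20 left out, 3 of the 8 protein kinase C genes were above, with a median of 0.09 and Prkca at 0.31 and Prkcq at 0.47. Kcnip2 was then at 0.64, Cib2 at -0.34, Calcr at 0.95, Tcf7l2 at -0.46 and Tnnt2 at -0.90, so the protein kinase C and Kcnip2 values were partly those of cluster 20. Without it, 2 of the 6 members, Calb1 above and Necab2 below, were past the fold, against 29.98% of 15645 genes.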

How the data were processed

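Nuclei from the thalamus of the operated side were sorted and pooled in equal numbers per group, and droplet libraries (3′, with UMIs) were sequenced. The authors deposited raw UMI counts per gene and barcode, made with Cell Ranger 6.0.2 against GRCm38 (mm10), and the submitters' notes also name bcl2fastq and Seurat 4.0. Counting of introns, use of strand and the annotation release are not given in the sources used here. The count totals were 137850696 (sham) and 180106314 (injury) UMIs, and the lowest barcode held 500, so empty droplets were already removed. Symbols for 32235 of 32285 rows came from GENCODE M21.

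Nuclei with over 2% mitochondrial UMIs, under 200 or over 7500 genes were left out (9 and 30 for the first, 8 and 21 for the last). Counts were normalised to 10000, both libraries were integrated by anchors (Seurat 5.3.0, R 4.3.3) on 1976 variable genes without the members and listed genes, and clustered with 30 components at resolution 0.5. Doublets (scanpy 1.11.5, 0.8% per 1000 nuclei, 13.3% and 17.8% called) were kept, but 4 clusters with over 50% called were set apart. Clusters were classed by Gad1 plus Gad2, Slc17a6 and Slc17a7, and named only where at least 3 listed markers were highest there. Cluster 0 also met this, with 3 of 4 midbrain-derived GABAergic markers, and was left unnamed. So was cluster 27, where the dentate markers Plk5, Dock10 and C1ql2 were highest. Names were rebuilt, so differences from the study may come from them.

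UMIs were summed per class and divided by its total (CPM). With 1 library per group no test was possible. Intervals (95%) are exact Poisson for levels, Clopper-Pearson for shares and exact binomial for ratios. Genes with at least 50 UMIs over both libraries were compared, and a log2 ratio of at least 0.25 in either direction, the fold the study used, counted as past the fold. Nuclei were thinned to 3000 UMIs at random for joint detection. The sums and thinning were tested on simulated data. Named genes were the members, the 3 genes most like each over clusters, and the 2 of each list with the largest ratio; Hpca, Nts and leading genes were named beyond this. Some genes of the lists are not reported here by name. Members and lists were chosen with earlier results of these data known. Alternatives covered TMM scaling (edgeR 4.0.16), doublets, classes from single nuclei, clustering, depth, detection and free RNA.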

Additional observations from a re-analysis of the deposited data

Results flagged for a closer look

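The direction of the difference between the libraries was opposite in the 2 neuron classes for 3 genes. Each class had 1 library per group and the difference between classes was not tested. Pvalb had a log2 ratio of -0.22 in GABAergic and 0.49 in Slc17a6 neurons, Calb1 0.34 and -0.07, and Necab2 0.63 and -0.17. With cluster 20 left out, the GABAergic values were -0.005 for Pvalb, 0.40 for Calb1 and -0.32 for Necab2, and that of Calb1 in Slc17a6 neurons was 0.01 with clusters weighted equally. Calb1 was higher in 7 and lower in 7 Slc17a6 clusters, so the opposite direction depends on how clusters are weighted.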

How the results depend on the processing

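No paired analysis was possible because sham and injury were 1 library each. Among the alternative values for log2 ratios of members, 107 stayed within the counting interval, 21 moved further and 2 of a value past the fold changed sign, both for Necab2 in GABAergic neurons: -0.40 with clusters weighted equally and -0.32 without clusters under 50 nuclei in 1 library, a choice made after seeing the data. Values short of the fold changed sign too, Necab1 in GABAergic neurons to -0.27 and -0.24 under the same choices and to -0.11 without doublets, Calb2 there to -0.19 with classes from single nuclei, and in Slc17a6 neurons Calb1 to 0.01 and Prkcd to -0.04 with equal weights. Prkcd in GABAergic neurons was 0.01 with equal weights, 2.30 without integration and 2.37 with free RNA subtracted. In Slc17a6 neurons 0 members passed the fold when thinned and 0 at a fold of 0.5, which 8.50% of all 19268 genes passed. In GABAergic neurons 5 members passed when thinned. The share over all genes was not computed for thinned nuclei, so the thinned counts are not read as a result about the members.

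The share of Slc17a6 nuclei with only 1 of 3 genes was 79.7% (sham) and 81.0% (injury) without thinning, 87.3% and 88.7% at 5000 UMIs and 99.0% and 99.1% when 2 UMIs were required. In GABAergic nuclei it was 91.8% and 91.6% without thinning and 100% and 100% with 2 UMIs. These shares follow depth and threshold. Pairs above 1 in both libraries numbered 14 without thinning and 5 with 2 UMIs in Slc17a6 neurons, and 0 with 2 UMIs and 1 without doublets in GABAergic neurons. The main setting gave 9 of 19 pairs in Slc17a6 and 2 of 5 in GABAergic neurons. How many pairs have enough nuclei expected can change with the setting, so these counts are not read as shifts in joint detection. Depth limits Pvalb in Slc17a6 neurons and Tnnt1 in GABAergic neurons.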

Other observations

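Outside neurons, Prkcd was the member with the highest share of nuclei in microglia and astrocytes. Microglia, immune cells of the brain, had 9 Prkcd UMIs in 32 sham and 61 in 168 injury nuclei, or 124 CPM (interval 56.9 to 236) and 180 CPM (138 to 231), with 25% and 32.1% of nuclei positive at median depths of 1282 and 1205 UMIs. Astrocytes had 55.1 and 60.1 CPM, with 11.005% and 15.4% of nuclei positive, against 13.5 and 12.9 CPM in oligodendrocytes. The median depth was 1892 and 2549 UMIs in astrocytes and 1538 and 1652 UMIs in oligodendrocytes, so the shares are not compared between these classes. The level in oligodendrocyte precursors was 11.1 and 7.01 CPM. Pvalb and Tnnt1 had 0 UMIs in microglia of both libraries, which at these depths limits only the share of nuclei with a UMI, to 10.9% and 2.17%.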
